A study of Sinonovacula constricta with 9 samples.

Results

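In juveniles of the razor clam Sinonovacula constricta, 94 of 246672 assembled transcripts (unigenes) had higher levels at both 5 and 25 psu than at 15 psu. Salinity is given in psu, the practical salinity unit. A unigene entered the set when all 6 of its FPKM values at 5 and 25 psu (fragments per kilobase of transcript, scaled to library size) lay above all 3 values at 15 psu. The ratios of its group means to 15 psu, with 0.1 FPKM added to each mean, also had to be at least 1.5 at 5 and at 25 psu. Before that, 15060 unigenes had passed the floors of 5 FPKM on average and 300 counts in all, with the 100 unigenes of the largest summed count left out. The 94 are 0.624% of these 15060, where the order of libraries alone was met by 2.7% and both ratios alone by 0.956%. The reverse order, all 6 values below all 3, was met by 3.47%, and the mirrored rule for lower levels at both extremes found 28 (0.186%). The members were thus chosen by their FPKM values at 5, 15 and 25 psu, so their differences from 15 psu are given as a description with no test. No part of the rule compares 25 with 5 psu, and this difference was tested. The floor of 5 FPKM is a mean over all 9 libraries, however, and 5 members called lower at 25 psu averaged under 5 FPKM there, while 4 called higher averaged under 5 FPKM at 5 psu. These 9 passed the floor through the salinity at which they were high. Other called members may have done so too, since the mean also takes in the 15 psu libraries, and these were not counted. A further member called lower, for instance, averaged 18.03 FPKM at 5 psu, 1.44 FPKM at 15 psu and 5.41 FPKM at 25 psu.

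The salinities were 5 psu (low) and 25 psu (high), against 15 psu, which the submitters describe as optimal and as their control. Whole juveniles on day 15 after fertilization were held at each salinity for 6 h, and total RNA from them gave 3 libraries per salinity, 9 in all. The labels name no genotype, strain or further agent, and do not say how many animals went into a library or whether replicate libraries stem from separate cultures. The p-values therefore measure only the spread between these libraries, which may be technical. Total estimated counts ran from 15897903 to 18427234 per library. In RNA from whole animals, fewer cells of a type and less RNA per cell cannot be told apart.

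Marine bivalves let the concentration of their body fluids follow that of the water, and their cells then lose or gain water. Cells adjust their volume mainly by changing their content of inorganic ions and small organic solutes such as free amino acids. A drop and a rise in salinity ask for opposite adjustments of solutes, while damage to proteins can go with either. None of the files used here pairs the identifiers with gene names or sequences, so no function is given to any unigene here and roles cannot order the results. All 94 unigenes carry the identifier of assembly cluster 8005, which also holds 99.9% of the 15060 unigenes past the floors, so membership of that cluster does not set them apart.

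Together the 94 unigenes summed to 3565 ± 80.3 FPKM at 5 psu, 1079 ± 20.4 FPKM at 15 psu and 2512 ± 62.5 FPKM at 25 psu (SD, n = 3 each). By library these sums were 3615, 3607 and 3472 FPKM at 5 psu, 1064, 1102 and 1071 FPKM at 15 psu, and 2572, 2447 and 2517 FPKM at 25 psu. The rule set a smallest ratio of each extreme to 15 psu, while the sums at 25 psu all lay below those at 5 psu. Abundant unigenes weigh most in such sums, and the median log2 fold change of 25 over 5 psu over the members was -0.05. In counts the set took 0.604% ± 0.0063 of a library at 5 psu, 0.175% ± 0.00575 at 15 psu and 0.427% ± 0.0105 at 25 psu (SD, n = 3 each). Of the 94, 4 averaged 100 FPKM or more over the 9 libraries, 48 averaged 10 to 100 FPKM and 42 lay between 5 and 10 FPKM. The 4 most abundant held 24.7 to 30.8% of the summed FPKM of a library.

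The median ratio to 15 psu was 2.10 at 5 psu (quartiles 1.71 and 5.82) and 2.14 at 25 psu (quartiles 1.79 and 3.72). Ratios at 5 psu reached 10-fold for 13 unigenes and 4-fold for 29, against 3 and 19 at 25 psu. At least 2-fold at 5 psu were 53, and the same number at 25 psu, with 36 at least 2-fold at both. The ratio was larger at 5 than at 25 psu for 54 of the 94 and larger at 25 psu for 40. The rule used both ratios, and they share the control libraries.

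**Figure D1:**
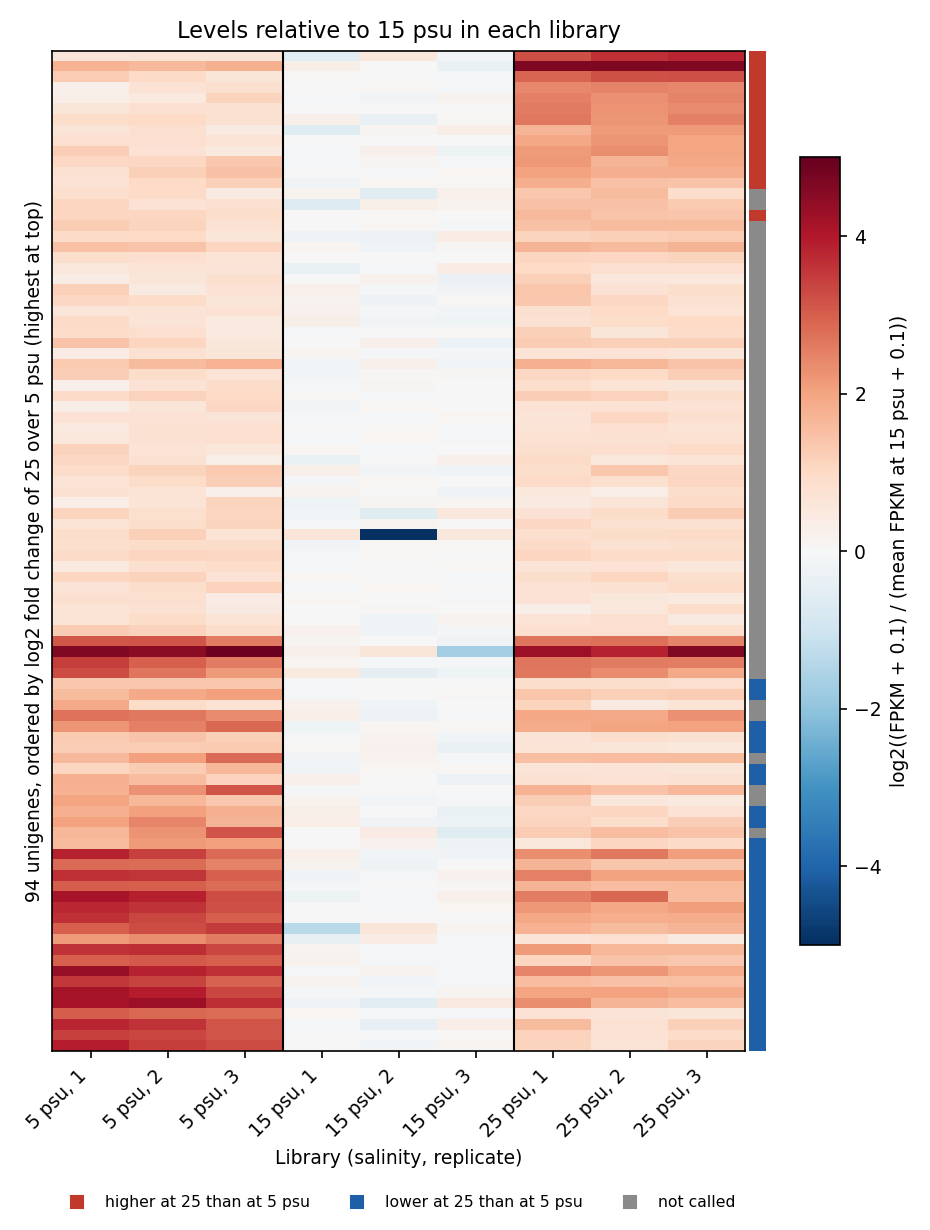
Levels of the 94 unigenes (rows) in each of the 9 libraries (columns), as log2 of FPKM over the mean at 15 psu with 0.1 FPKM added to both; rows run from the highest log2 fold change of 25 over 5 psu at the top to the lowest at the bottom, and the strip at the right gives the edgeR call for that comparison. The 14 unigenes called higher at 25 psu fill the top, the 29 called lower fill most of the bottom, and 1 cell, an FPKM of 0 in replicate 2 at 15 psu, lies beyond the colour scale of 5.

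Among the most abundant unigenes there were 2 patterns. The most abundant had 483.34, 433.94 and 318.99 FPKM at 5 psu, 46.75, 37.07 and 39.4 FPKM at 15 psu, and 120.33, 112.51 and 117.61 FPKM at 25 psu. Its level at 5 psu was the highest of the set, 10.01 times that at 15 psu, and at 25 psu it stood at 2.84 times the control. The fourth most abundant had the same shape, with 247.76, 242.68 and 206.82 FPKM at 5 psu, 29.05, 30.27 and 31.05 FPKM at 15 psu, and 96.97, 88.33 and 90.81 FPKM at 25 psu. In both, replicate 3 at 5 psu was the lowest of its group and still above every library at 25 psu.

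Ranks 2 and 3 by abundance were level at the extremes. The second had 187.9, 221.8 and 275.25 FPKM at 5 psu, 109.5, 123.33 and 116.09 FPKM at 15 psu, and 222.97, 204.95 and 242.64 FPKM at 25 psu. The third had 184.3, 212.73 and 250.68 FPKM at 5 psu, 107.2, 127.88 and 112.9 FPKM at 15 psu, and 236.0, 197.65 and 194.53 FPKM at 25 psu. Here replicate 3 was the highest at 5 psu, and the libraries at 25 psu fell within the range at 5 psu for both. Ratios to 15 psu were 1.962 at 5 psu and 1.921 at 25 psu for the second, and 1.86 and 1.805 for the third.

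Cluster-8005.119293 had the largest ratios to 15 psu when both salinities were asked for, at 25.6 for 5 psu and 19.55 for 25 psu. Its FPKM was 22.34, 20.7 and 27.05 at 5 psu, 0.98, 1.29 and 0.18 at 15 psu, and 17.63, 13.14 and 22.7 at 25 psu. It was near the bottom of the measured range in every control library, which held 32.93, 47.2 and 5.97 estimated counts, so the size of its ratio rests on few counts. It is the single unigene of the 94 with both ratios above 10. Cluster-8005.88275 came second, with ratios of 7.85 and 6.23. That unigene had 14.81, 15.37 and 10.58 FPKM at 5 psu, 1.84, 1.64 and 1.45 FPKM at 15 psu, and 10.9, 11.63 and 9.73 FPKM at 25 psu, so that the ranges at the extremes overlapped.

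Ranks 3 to 6 by the smaller ratio ran from 6.14 down to 5.0. The third averaged 29.0 ± 8.85 FPKM at 5 psu, 3.42 ± 0.318 FPKM at 15 psu and 21.5 ± 0.852 FPKM at 25 psu (SD, n = 3 each). Ranks 4 and 5 leaned to 5 psu, with 24.5 ± 7.03 and 32.2 ± 10.75 FPKM there, 1.69 ± 0.332 and 2.89 ± 0.521 FPKM at 15 psu, and 9.48 ± 3.995 and 15.4 ± 2.99 FPKM at 25 psu (SD, n = 3 each). The sixth, with 8.76 ± 3.40 FPKM at 5 psu, 1.21 ± 0.455 FPKM at 15 psu and 6.47 ± 1.61 FPKM at 25 psu (SD, n = 3 each), carries the number just before that of the third. In all 4 of these unigenes replicate 3 was the lowest library at 5 psu.

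**Figure D2:**
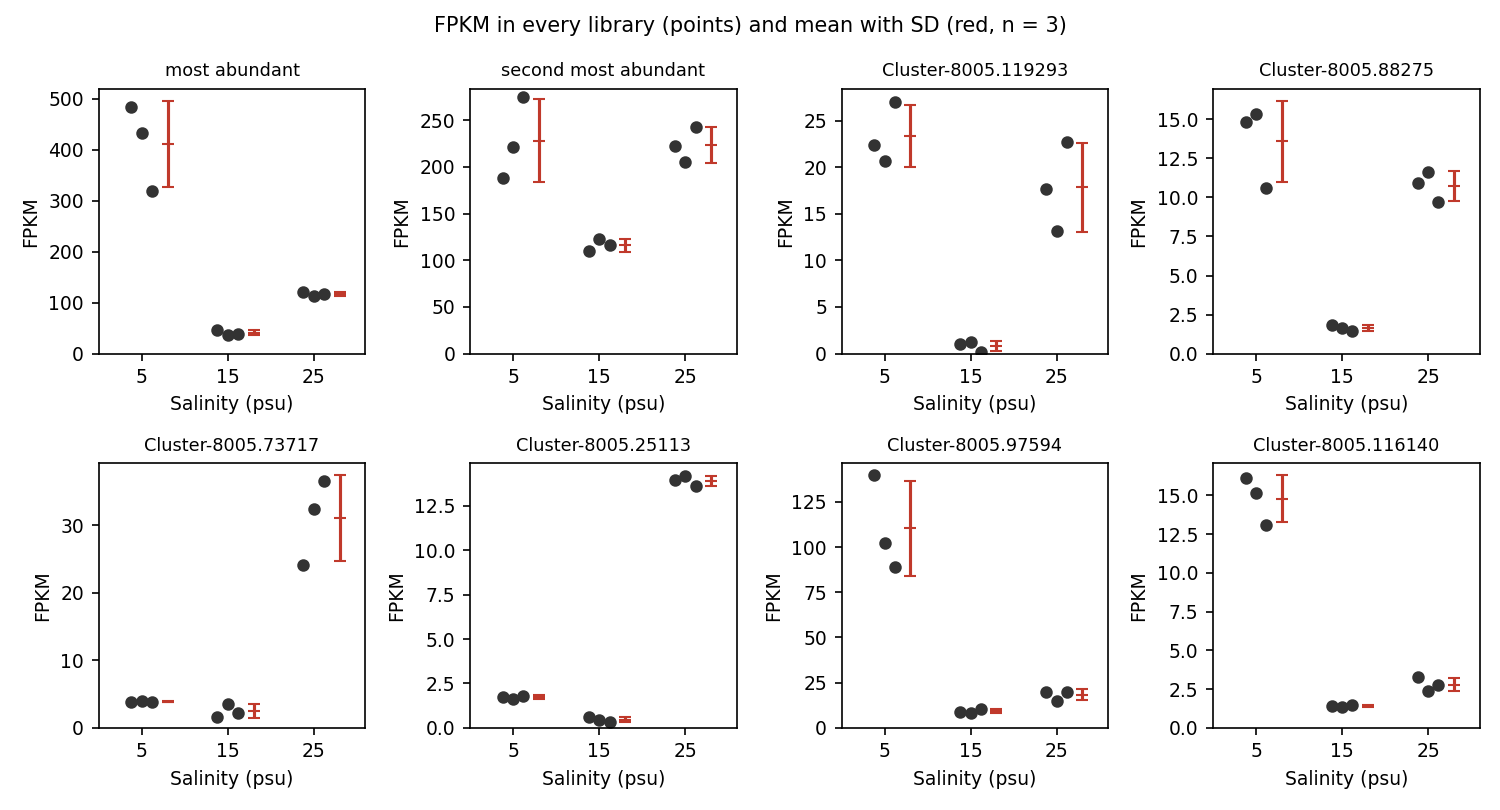
FPKM (linear axis from 0) of 8 unigenes by salinity in psu; points are the 3 libraries of a group and red bars the mean with SD. The most abundant unigene stands at 412.1 FPKM at 5 psu, the second is level at 5 and 25 psu, Cluster-8005.73717 and Cluster-8005.25113 are high at 25 psu and Cluster-8005.97594 and Cluster-8005.116140 at 5 psu.

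The comparison of 25 with 5 psu asked whether the 2 extremes drew equal levels from the same unigenes. Of the 94, 29 were lower and 14 were higher at 25 psu than at 5 psu (adjusted p under 0.05 in the edgeR fit, with Benjamini-Hochberg adjustment over the 71915 tested). Of all tested unigenes 4.63% were called lower and 6.48% higher at 25 psu. Among the 15041 that were tested and past the floors of the rule, which are abundant like the members, these were 7.85% and 15.3%. The members' 30.9% lower lies above both backgrounds, and their 14.9% higher is close to that of the abundant unigenes. Neither background was chosen for a difference from 15 psu, as the members were. The members' calls also include at least 5 lower and at least 4 higher unigenes that passed the floor through the salinity at which they were high. These shares are therefore not like for like, and nothing is concluded from the excess. In either direction 45.7% of the members were called, against 23.1% of the abundant unigenes and 11.1% of all tested. The median log2 fold change was -0.05 over the members, 0.02 over the abundant unigenes and -0.02 over all tested. The libraries at 25 psu also had shorter effective transcript lengths, as the deposited counts and FPKM values imply them, with offsets of -5.67 ± 1.07 nucleotides at 25 psu and 1.29 ± 5.17 at 5 psu (SD, n = 3 each). At 15 psu, the group that both ratios of the rule share, the offset was 4.38 ± 6.94 nucleotides (SD, n = 3). With this offset as a covariate 18 members were lower and 11 higher, while 1300 and 2358 of all tested unigenes were. Without replicate 1 at 25 psu 19 were lower and 12 higher.

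**Figure D3:**
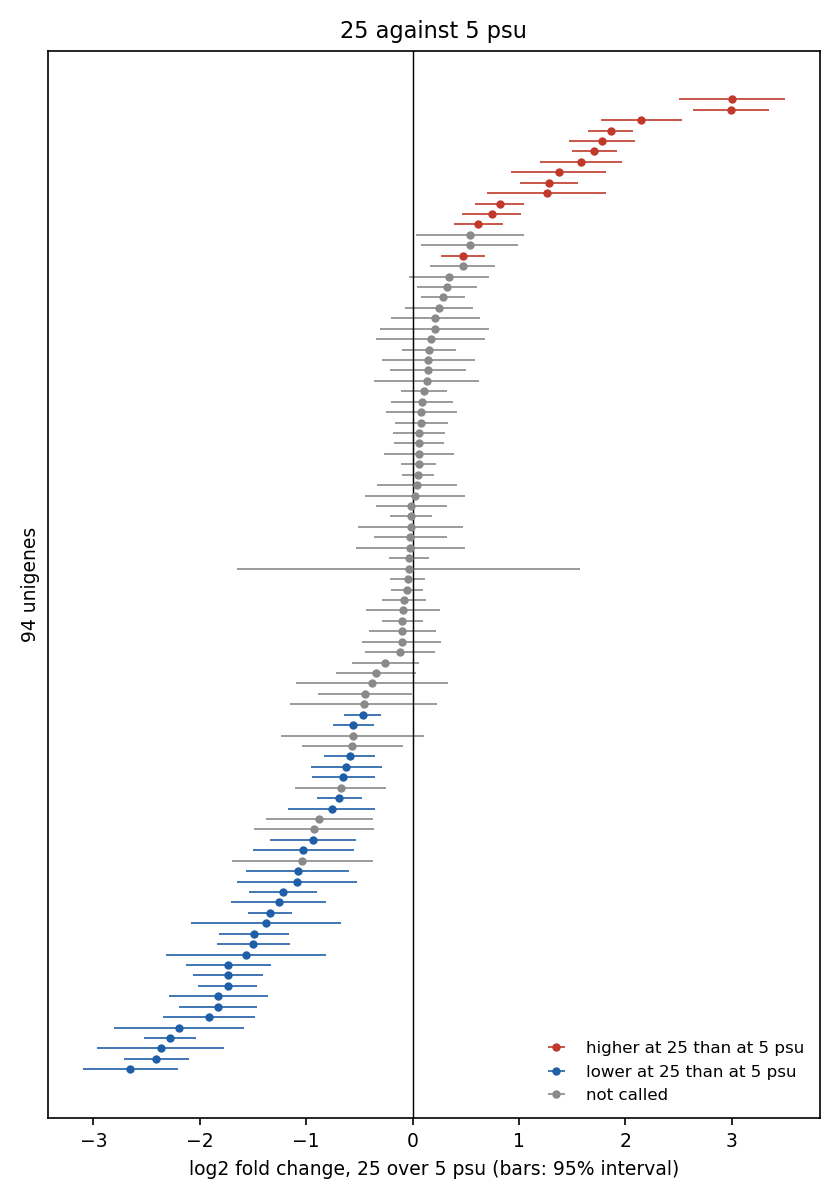
Log2 fold change of 25 over 5 psu for each of the 94 unigenes (points, ordered by value) with its 95% interval (bars), coloured by the edgeR call at an adjusted p under 0.05. Values run from -2.65 to 3.0, and intervals are not adjusted for the number of unigenes, so 11 of the 51 uncalled unigenes have an interval that leaves out 0.

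Among the 29 unigenes lower at 25 psu, ratios to 15 psu at 5 psu ran between 2.39 and 16.55. Their median ratio was 2.43 at 25 psu and 8.05 at 5 psu, and together they stood at 700.9 ± 22.2 FPKM at 25 psu, against 1846 ± 185 FPKM at 5 psu (SD, n = 3 each), with 256.7 ± 5.24 FPKM at 15 psu. The difference was at least 2-fold for 21 of them and at least 4-fold for 5. Of all 1181 unigenes past the floors that were called lower, 32.2% differed at least 2-fold and 6.6% at least 4-fold. These were not chosen by their ratios to 15 psu, as the 29 were, so the comparison is not like for like. FPKM values at 25 psu lay wholly below those at 5 psu in 36.2% of the 94 members and in 17.2% of the unigenes tested and past the floors. They did so in all of the 29 called and in 99.2% of the 1181, so nearly every call came with this order. The reverse does not hold, as 2589 unigenes tested and past the floors had this order.

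Cluster-8005.97594 had the largest difference in this direction. It had 19.99, 14.66 and 19.88 FPKM at 25 psu, against 139.75, 102.49 and 88.82 FPKM at 5 psu, a log2 fold change of -2.65 (SE 0.23, edgeR adjusted p = 8.14e-05). Its libraries at 15 psu stood at 9.03, 8.33 and 10.23 FPKM, so the level at 25 psu lay nearer to the control than to the level at 5 psu. Cluster-8005.116140 had 3.26, 2.37 and 2.75 FPKM at 25 psu, against 16.09, 15.18 and 13.11 FPKM at 5 psu (-2.41 on the log2 scale with an SE of 0.16, adjusted p = 1.75e-05 in edgeR). Both were lower in 3 of 3 libraries at 25 psu than in any at 5 psu. Cluster-8005.116140 averaged 2.79 FPKM at 25 psu, so it passed the floor of 5 FPKM through its level at 5 psu.

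Ranks 3, 4 and 5 in this direction had log2 fold changes of -2.37, -2.28 and -2.20. Like Cluster-8005.116140, they averaged under 5 FPKM at 25 psu and passed the floor through their level at 5 psu. Rank 3 averaged 4.18 ± 1.21 FPKM at 25 psu and 21.4 ± 4.87 FPKM at 5 psu (SD, n = 3 each). Rank 4 averaged 3.96 ± 0.180 FPKM at 25 psu and 19.2 ± 1.63 FPKM at 5 psu, and rank 5 averaged 2.68 ± 0.836 FPKM at 25 psu and 12.2 ± 2.596 FPKM at 5 psu (SD, n = 3 each). Their control libraries averaged 1.75, 2.46 and 0.643 FPKM, and control libraries held 6.83, 5.63 and 8.34 estimated counts for rank 3 and 5, 4 and 8 for rank 5. Of the most abundant unigenes, the first and the fourth were also lower at 25 psu (log2 fold changes -1.83, SE 0.19, and -1.34, SE 0.11; edgeR adjusted p = 0.000391 and 5.44e-05). So were ranks 4 and 5 by the smaller ratio (-1.38, SE 0.36, and -1.08, SE 0.29; edgeR adjusted p = 0.0447 and 0.0403), whose calls were lost under 10 and 12 of the 20 other fits.

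The 14 unigenes higher at 25 psu were of moderate abundance, none above 21.24 FPKM on average. Their median ratio to 15 psu was 4.89 at 25 psu and 1.83 at 5 psu, so many passed the bound of 1.5 at 5 psu narrowly. Together they stood at 318.5 ± 4.71 FPKM at 25 psu, against 122 ± 3.32 FPKM at 5 psu (SD, n = 3 each), with 64.23 ± 2.87 FPKM at 15 psu. The difference was at least 2-fold for 10 of the 14 and at least 4-fold for 3, beside 34.8% and 6.65% of all 2300 unigenes past the floors that were called higher. As for the lower unigenes, this comparison is not like for like, since the 14 were chosen by their ratios to 15 psu. FPKM values at 25 psu lay wholly above those at 5 psu in 21.3% of the 94 members and in 26.2% of the unigenes tested and past the floors.

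Cluster-8005.73717 and Cluster-8005.25113 led this group with a log2 fold change of 3.0 each. They averaged 3.89 and 1.74 FPKM at 5 psu, so both passed the floor of 5 FPKM through their level at 25 psu. Cluster-8005.73717 had 24.09, 32.39 and 36.58 FPKM at 25 psu, against 3.8, 3.97 and 3.89 FPKM at 5 psu (SE 0.25, edgeR adjusted p = 8.89e-05). Its control libraries, at 1.63, 3.6 and 2.22 FPKM, came close to the values at 5 psu, and the ratio of 5 over 15 psu was 1.54. That ratio was just above the bound of 1.5 and depended on the control library at 1.63 FPKM, so its place in the set is narrow. Cluster-8005.25113 had 13.96, 14.2 and 13.64 FPKM at 25 psu, against 1.76, 1.63 and 1.82 FPKM at 5 psu (SE 0.18, edgeR adjusted p = 1.26e-05). Its control libraries held 0.59, 0.45 and 0.34 FPKM from 11, 9 and 6 counts, and its ratio of 25 over 15 psu, 25.06, was the largest at that salinity in the set.

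Ranks 3, 4 and 5 in this direction averaged 39.7 ± 4.70, 32.7 ± 1.11 and 21.95 ± 1.70 FPKM at 25 psu, against 8.91 ± 1.95, 9.11 ± 1.75 and 6.47 ± 1.962 FPKM at 5 psu (SD, n = 3 each). Their log2 fold changes were 2.15 (SE 0.19), 1.86 (SE 0.11) and 1.78 (SE 0.16), with edgeR adjusted p = 0.000145, 9.71e-06 and 9.85e-05. No library at 5 psu reached the lowest at 25 psu in these 3 unigenes, and rank 4 had the smallest ratio to 15 psu at 5 psu of the 14, at 1.51.

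For 51 unigenes no difference between 25 and 5 psu was called, which does not show that they were equal. The 95% interval of the difference lay within 1.5-fold either way for 30 of them and within 2-fold for 41. Most of these 51 had modest ratios to 15 psu, with medians of 1.89 at 25 psu and 1.86 at 5 psu. The highest were 19.55 at 25 psu and 25.6 at 5 psu, and ranks 1, 2, 3 and 6 by the smaller ratio were among the 51. Together the 51 stood at 1493 ± 39.8 FPKM at 25 psu, 1597 ± 105 FPKM at 5 psu and 758.2 ± 12.5 FPKM at 15 psu (SD, n = 3 each). The unigene with the smallest difference had 5.49, 7.59 and 6.05 FPKM at 25 psu, against 5.68, 6.45 and 7.37 FPKM at 5 psu, with an interval of -0.35 to 0.32 on the log2 scale. The second most abundant unigene was next, at -0.01 (interval -0.21 to 0.18), and the third most abundant stood at -0.03 (interval -0.22 to 0.16). The third smallest difference, -0.02, had a wider interval of -0.51 to 0.48. Cluster-8005.119293 was also uncalled, at -0.38 (SE 0.36, interval -1.09 to 0.33, edgeR adjusted p = 0.583).

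**Figure D4:**
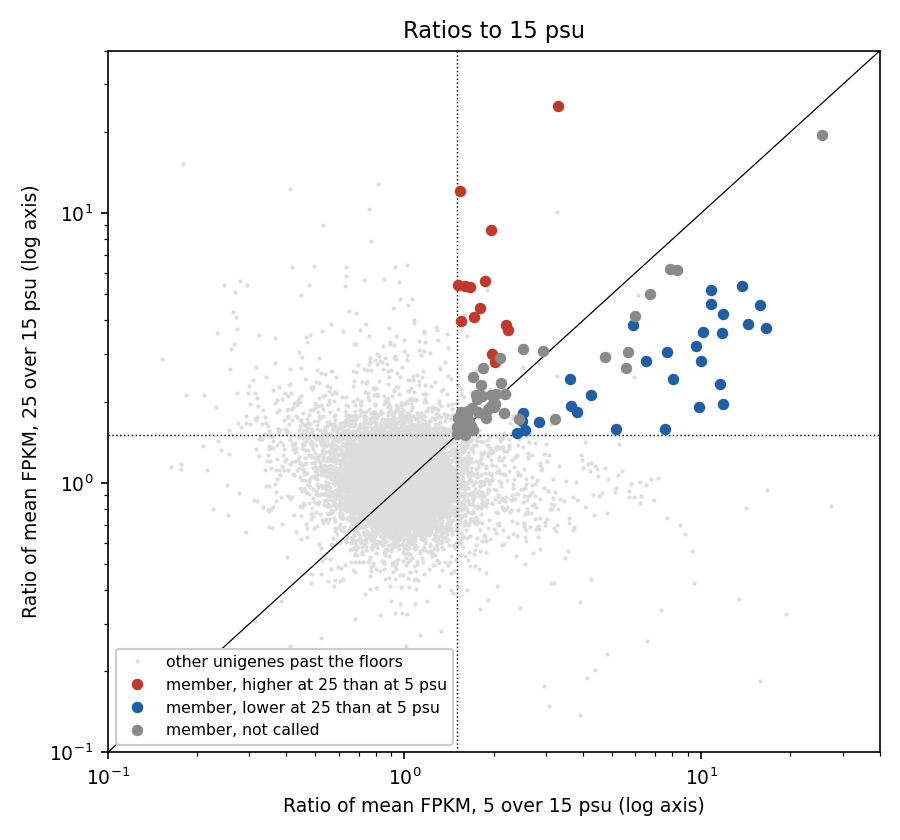
Ratio of mean FPKM of 25 over 15 psu (vertical, log axis) against 5 over 15 psu (horizontal, log axis), with 0.1 FPKM added to each mean, for the 94 members (coloured by the edgeR call for 25 against 5 psu) and the other unigenes past the floors (grey, 24 of them outside the axes); dotted lines mark 1.5 and the diagonal marks equal ratios. Large ratios at 5 psu go with ratios of 1.52 to 5.36 at 25 psu among the members called lower at 25 psu, and those called higher stay between 1.51 and 3.28 at 5 psu; the axes share the control libraries, so no correlation is given.

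Many members carried neighbouring numbers within the assembly cluster. Of the 94, 26 had another member at the next number up or down. Of the 60 unigenes past the floors that stand next to a member, 43.3% were members themselves, against 0.625% of those past the floors in the assembly cluster as a whole. Taking numbers at most 2 apart as a set, 35 members fell into 15 sets of 2 to 4, and the other 59 stood alone. What a neighbouring number means is not given in the sources used here, and 56 of the 94 unigenes had counts that were not whole in any library, so members of a set may share reads and are not independent.

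In 11 of the 15 sets at least 2 members were called between 25 and 5 psu, and none of the 15 sets held calls in both directions. Counted as pairs with numbers at most 2 apart and both called, 14 of 14 pairs of members had the same direction, beside 75.5% of 601 such pairs of other unigenes past the floors. Both partners of a member pair had passed the same rule, and some pairs share a unigene, so these shares are not like for like. Not every member of a set was called. The set of 4 that includes Cluster-8005.119293 had ratios of 10.1 to 25.6 at 5 psu and 3.62 to 19.55 at 25 psu. Its 3 other members averaged 30.7, 13.9 and 39.1 FPKM at 25 psu and 86.4, 51.8 and 109.5 FPKM at 5 psu, with log2 fold changes of -1.50, -1.91 and -1.49, where Cluster-8005.119293 stood at -0.38. The other set of 4 summed to 267.1 FPKM at 5 psu, with log2 fold changes of -1.74 to -0.88, of which 2 were called. A set of 3 was called higher at 25 psu throughout, at 1.58 to 1.78. Summed within sets before the fit, an alternative chosen after the data were seen, 20 of 74 units were lower and 10 higher at 25 psu.

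**Figure D5:**
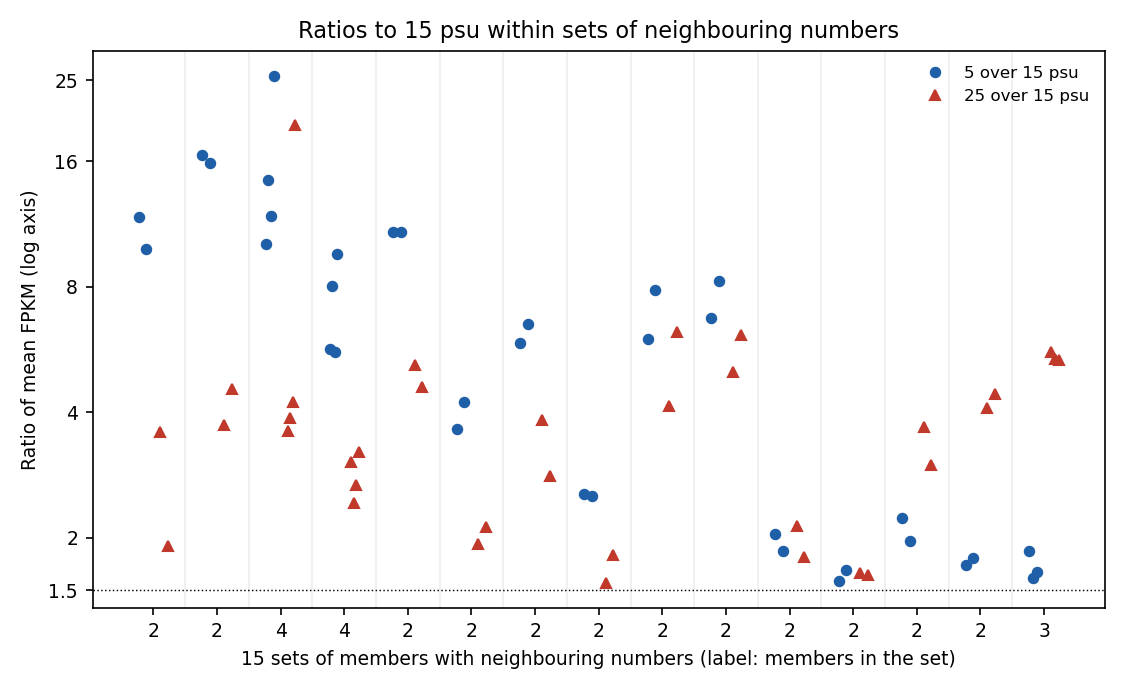
Ratio of mean FPKM to 15 psu (log axis, 0.1 FPKM added to each mean) at 5 psu (circles) and 25 psu (triangles) for the 35 members in the 15 sets of neighbouring numbers, ordered by the mean log2 fold change of 25 over 5 psu in the set; the label gives the number of members. The 3 sets at the left lie between 9.84 and 25.6 at 5 psu and the set at the right between 5.34 and 5.58 at 25 psu, and points of a set mostly lie together.

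Length, as the deposited counts and FPKM values imply it, was somewhat greater among the members. The median implied effective length (the stretch of a transcript on which a fragment can start) was 1462 nucleotides (quartiles 701.8 and 2568) for the 94 and 1113 nucleotides (556.3 and 2054) for the 15060. Members lower at 25 psu had a median of 1538 nucleotides, those higher 2078 and those not called 1147. Under 200 nucleotides lay 4 members, and of these 3 were also members with TMM-scaled CPM (counts scaled to TMM-adjusted library sizes, with no division by length) in place of FPKM. Counts were whole in all 9 libraries for 23.4% of the members and 35.4% of the 15060.

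The spread between libraries was largest at 5 psu. The median coefficient of variation over the 94 was 15.7% at 5 psu, 11.6% at 15 psu and 10.7% at 25 psu, beside 14.5%, 9.66% and 9.55% over the 15060. At 5 psu replicate 3 was the lowest library for 52 members, replicate 1 for 37 and replicate 2 for 5. The 29 members lower at 25 psu summed to 1998, 1899 and 1640 FPKM in replicates 1, 2 and 3 at 5 psu, and the 51 uncalled members to 1499, 1584 and 1708 FPKM, so replicate 3 was the lowest for the 29 and the highest for the 51.

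At the bound of 1.5 the member just inside had ratios of 1.505 at 5 psu and 1.516 at 25 psu, and the unigene just outside, which met every other part of the rule, had 1.61 and 1.497. Around 5 FPKM, the member just inside averaged 5.17 FPKM, and a unigene with 4.91 FPKM on average and ratios of 6.91 and 3.30 stayed outside. At the floor of 300 counts, the nearest member held 306.7 counts and the nearest unigene left out 275.8. The 100 unigenes of the largest summed count held none that met the other parts. Only 1 member was listed at 0 FPKM in any library, which was replicate 2 at 15 psu. Its other control libraries stood at 7.56 and 7.28 FPKM, with 9.12, 11.4 and 8.08 FPKM at 5 psu and 8.83, 9.55 and 9.68 FPKM at 25 psu. Without that library its ratios were 1.28 at 5 psu and 1.26 at 25 psu. With each of the 9 libraries left out in turn, 62 of the 94 met the rule every time, and the others failed it at least once.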

How the data were processed

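Each library has a table deposited by the authors that lists, per the file headers, expected counts and FPKM for every unigene. The submitters' processing notes name RSEM and Bowtie2. Versions and the assembler: not given in the sources used here. In a library, 25.0 to 27.6% of unigenes had a fractional count. Deposited FPKM values have 2 decimals and were used as they stand for the membership rule and the levels.

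For the test of 25 against 5 psu, counts were rounded to whole numbers, filtered with filterByExpr (count minimum 10), scaled with TMM factors and tested by quasi-likelihood in edgeR 4.0.16 (R 4.3.3, robust) in 1 model of 3 groups and 9 libraries. P-values were adjusted with Benjamini-Hochberg over all tested unigenes at 0.05. SEs are log2 fold changes over the root of F, and 95% intervals take the normal quantile, so both may be too narrow at 3 libraries a group. The test was checked on simulated data. Implied effective lengths come from count, FPKM and library total. A library's offset is the median deviation over unigenes averaging at least 2000 counts.

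Unigenes were named by rank: the 4 most abundant, the 6 with the largest smaller ratio, the 5 with the largest log2 fold change in each direction among those called, and the 3 with the smallest difference between 25 and 5 psu. Since the files pair no names with the identifiers, few identifiers are printed. The members and these lists were chosen with earlier results of these data known. Alternatives were other scalings, filters, DESeq2 (1.42.0), limma (3.58.1), limma-voom, a replicate block, the length offset, other bounds of the rule, CPM in place of FPKM, and leaving out each library. Replicate numbers recur across the groups, and the labels tie none of them to a common batch or day.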

Additional observations from a re-analysis of the deposited data

Results flagged for a closer look

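The difference between the response at 25 psu and that at 5 psu passed the edgeR test (adjusted p under 0.05) for the unigenes given here, each with its log2 fold change of 25 over 5 psu. The 5 leading unigenes in each direction were named because they were called, so their number says nothing more. Among those higher at 25 psu, Cluster-8005.73717 and Cluster-8005.25113 stood at 3.0 each, and the next 3 of that ranking at 2.15, 1.86 and 1.78. Among those lower at 25 psu, Cluster-8005.97594 stood at -2.65 and Cluster-8005.116140 at -2.41, and the next 3 at -2.37, -2.28 and -2.20. Ranks 1 and 2 of the higher and ranks 2 to 5 of the lower averaged under 5 FPKM at the salinity where they were low. These passed the floor of the rule through the other salinity. The most abundant and the fourth most abundant unigene stood at -1.83 and -1.34. Ranks 4 and 5 by the smaller ratio to 15 psu stood at -1.38 and -1.08.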

How the results depend on the processing

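The number of members follows the bounds of the rule. It was 36 with a smallest ratio of 2, 216 with a looser smallest ratio, 52 with a minimum of 10 FPKM and 196 with no minimum of FPKM, where the 94 all remained under the looser bounds. With 1 FPKM added to the means it was 80, and with CPM in place of FPKM 101 (TMM-scaled) or 92 (library totals alone), with 90 of the 94 kept by both. Leaving out 1 library gave 89 to 129.

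Between 25 and 5 psu the counts of members called stayed within 1.5 times under the other scalings, tests and filters, at 14 to 15 higher and 22 to 32 lower, and with neighbouring numbers summed. The length offset as a covariate gave 18 members lower, and 2358 higher and 1300 lower over all tested unigenes. Leaving out 1 library gave 12 to 16 members higher and 19 to 29 lower. Over all tested unigenes it gave 2943 to 4411 higher and 1875 to 2885 lower, and the lower calls were 1899 once 5 psu lost replicate 2, and 1904, 1875 and 2046 once 25 psu lost its replicate 1, 2 or 3. The cause was not tested. Called under each of the 20 other fits were 18 of the 29 and 11 of the 14, and no member was called in the opposite direction.

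Same-numbered libraries deviated from their group means with correlations of -0.017 to 0.106, so the libraries were treated as unpaired. A fit with the replicate number as a block gave 14 members higher and 28 lower at 25 psu, and 4136 higher and 2845 lower over all tested unigenes. Intervals for 25 against 5 psu rest on the spread within all 3 groups of 3 libraries, 15 psu included. The member listed at 0 FPKM in a control library had an interval of -1.65 to 1.58 on the log2 scale. A member with few counts at 15 psu has an imprecise ratio.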

Other observations

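Around the 94 unigenes lay a wider group with the same order of libraries. Of the 15060 unigenes past the floors, 407 had all 6 values at 5 and 25 psu above all 3 at 15 psu, and 523 had all 6 below. Of the 313 higher ones that were no members, 53 reached a ratio of 1.5 only at 5 psu, 60 only at 25 psu and 200 at neither. A further 50 unigenes reached 1.5 at both salinities while their libraries overlapped. In 21 of these 50 the highest control library was replicate 3, in 19 replicate 2 and in 10 replicate 1.

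Below the floor of 5 FPKM, 102 unigenes with at least 300 counts met every other part of the rule, and 34 unigenes below 300 counts did so above that floor. Lower levels at both extremes were thus more common than higher ones by order of libraries alone, and less common once both ratios had to reach 1.5, at 28 unigenes against 94.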
